A study of Rattus norvegicus with 23 samples.

Results

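The RNF and TRIM families of ubiquitin ligases and the USP family of deubiquitinases were examined in RNA of the hippocampal CA3 field of male Long-Evans rats. Members were all probe sets of the array whose platform annotation gave a single gene symbol beginning with Rnf, Trim or Usp followed by a number, which selected 234 of 31042 probe sets, from 146 of 14217 genes named on the array. The RNF family had 104 probe sets of 68 genes, the TRIM family 47 of 35 genes and the USP family 83 of 43 genes. Choice by name took in Usp6nl, whose product is a GTPase-activating protein and not a deubiquitinase, and several RNF genes are named only for a RING domain. Of the members, 151 probe sets of 110 genes had values of 4 or more (log2) in 6 or more animals and were tested, 73 from RNF, 23 from TRIM and 55 from USP.

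The rats had no treatment and differed in age and in learning. Young rats (n = 9) were 6 months old and both aged groups 24 to 26 months old. Aged rats whose water-maze learning index fell inside the young range formed the aged unimpaired group (n = 6), and those that scored worse formed the aged impaired group (n = 8). The fields were separated by hand from each hippocampus, and each animal gave 1 array, so that the animals are the replicates. In such bulk tissue, fewer cells of a type and less RNA per cell cannot be told apart.

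Ubiquitin is activated by an E1 enzyme, passed to an E2 enzyme and joined to a substrate by an E3 ligase, which picks the substrate. RNF proteins share the RING domain that docks the loaded E2, and TRIM proteins add B-box and coiled-coil domains to it, with members known in neuronal cytoskeleton and synapse turnover and others in antiviral defence. USP proteins are cysteine proteases that cut ubiquitin off again, and in neurons both arms act on receptors, scaffolds and proteins bound for the proteasome.

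All values are log2 expression values, and differences are the first group named minus the second, given with the model's standard error (SE). A member was called where the Benjamini-Hochberg adjusted p of limma's moderated test, over all 14647 tested probe sets, was at most 0.05. Array medians lay between 3.39 and 3.42 in young, 3.41 and 3.43 in aged unimpaired and 3.43 and 3.46 in aged impaired animals, so that young and aged impaired arrays did not overlap, and each array's average correlation with the rest between 0.9959 and 0.9974. Of 15 genes listed as CA3 markers 12 were tested, and Grik4, a kainate receptor subunit of CA3, had a young mean of 9.15 ± 0.13 (SD, n = 9). Cell type markers moved with age. In aged impaired against young, 9 of 10 tested microglia markers and 3 of 9 astrocyte markers rose, while 4 CA3 markers fell and 1 rose, against 3.8% of all genes that rose and 6.42% that fell. Of the fields beside CA3, 2 of 4 tested CA2 markers (Pcp4 and Rgs14) fell, and 0 of 8 CA1 markers were called by limma, with 2 at an unadjusted p under 0.05 and a median difference of 0.36. The summed log2 level of the microglia list was 11.81 to 12.15 in young, 12.26 to 12.67 in aged unimpaired and 12.27 to 13.13 in aged impaired animals, that of the astrocyte list 15.17 to 15.47, 15.45 to 15.71 and 15.43 to 15.76, and that of the CA3 list 14.16 to 14.40, 14.00 to 14.25 and 13.68 to 14.24. The part of these shifts in the results on the members was not tested.

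In aged impaired against young animals, 13 of the 151 tested member probe sets were called (8.61%), against 9.76% of all tested probe sets, so the members as a whole stood near the background. The calls covered 12 genes. Rnf6, Rnf128 (both probe sets), Rnf182, Rnf215, Trim3, Trim24, Trim27, Trim37, Trim46 and Usp33 fell, and Rnf130 and Trim5 rose. Of the members, 11 calls were falls and 2 were rises, while 5.88% of all tested probe sets fell and 3.88% rose. By family, 6 of 73 RNF probe sets (8.22%), 6 of 23 TRIM probe sets (26.1%) and 1 of 55 USP probe sets (1.82%) were called. The median difference was -0.06 for RNF, 0.00 for TRIM and -0.02 for USP, beside -0.02 for all tested probe sets. The TRIM share thus came from a minority of genes in a family whose centre lay at 0, and a difference between the families was not tested. Leaving out 1 array at a time gave 10 to 23 called members, with 23 without aged impaired animal 1, when 15 came from RNF, and 17 without young animal 5, when 10 came from RNF. The share of all tested probe sets called in these fits ran from 6.95% to 12.3%, and it was 12.3% without aged impaired animal 1.

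**Figure D1:**
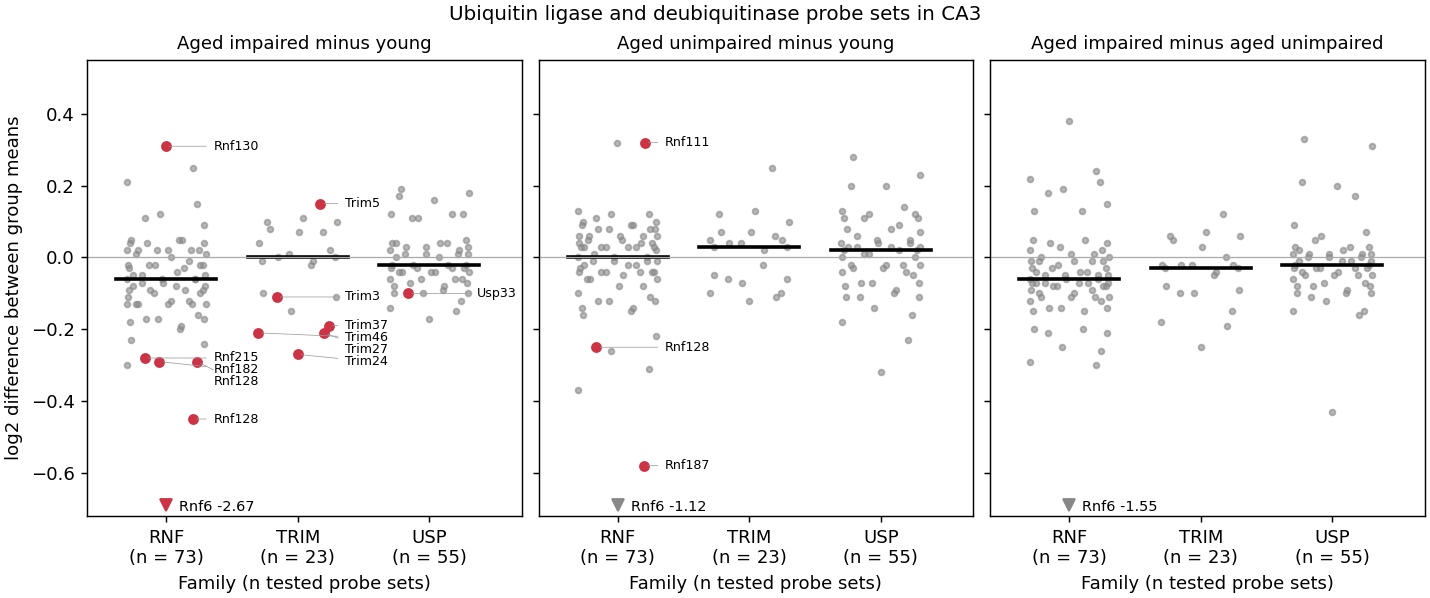
Difference between group means on the log2 scale for every tested probe set (1 point each) of the RNF, TRIM and USP families in the 3 pairwise comparisons; red points have an adjusted p of at most 0.05, bars are family medians, and triangles mark Rnf6, whose values lie below the axis and are printed beside them. Most points lie close to 0, and the red points of aged impaired minus young are mostly falls (11 of 13).

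Promoters of genes that fell are shown because the 6 that could be matched share a feature that the choice of members did not use. RefSeq promoter sequences (assembly GRCr8) were matched for 120 of the 146 genes, and for 6 of the 10 genes that fell. The 250 bases before the start of each gene were searched on both strands for 4 motifs. These were GGGCGG (the GC box, read by SP factors), the CCAAT box, the ETS factor motif CCGGAAG and the E-box motif CACGTG. The GC box, on either strand, is in capitals below, in sequences of 250 bases written 5′ to 3′ along the gene's strand up to the base before the start. Rnf128 lies at chrX:108028138-108028387 on the plus strand, Rnf182 at chr17:21287161-21287410 on the minus strand, Trim24 at chr4:67534085-67534334 on the plus strand, Trim27 at chr17:48246349-48246598 on the minus strand, Trim37 at chr10:72440422-72440671 on the plus strand and Usp33 at chr2:243942960-243943209 on the plus strand. Trim5, which rose, is shown beside them and lies at chr1:168149264-168149513 on the minus strand.
Rnf128: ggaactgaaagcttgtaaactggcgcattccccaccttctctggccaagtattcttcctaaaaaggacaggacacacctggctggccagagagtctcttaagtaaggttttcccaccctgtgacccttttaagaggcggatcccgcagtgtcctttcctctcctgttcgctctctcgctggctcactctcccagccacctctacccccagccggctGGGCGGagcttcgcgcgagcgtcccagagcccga
Rnf182: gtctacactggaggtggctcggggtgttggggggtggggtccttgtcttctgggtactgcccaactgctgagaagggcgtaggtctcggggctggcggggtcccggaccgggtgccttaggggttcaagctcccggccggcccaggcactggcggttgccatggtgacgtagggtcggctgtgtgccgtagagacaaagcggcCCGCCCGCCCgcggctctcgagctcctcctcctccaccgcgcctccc
Trim24: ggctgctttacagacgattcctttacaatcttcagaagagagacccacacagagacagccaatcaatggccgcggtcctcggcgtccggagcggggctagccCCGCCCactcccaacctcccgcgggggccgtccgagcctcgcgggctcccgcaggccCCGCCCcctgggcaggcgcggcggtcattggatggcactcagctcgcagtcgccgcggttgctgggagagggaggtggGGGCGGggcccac
Trim27: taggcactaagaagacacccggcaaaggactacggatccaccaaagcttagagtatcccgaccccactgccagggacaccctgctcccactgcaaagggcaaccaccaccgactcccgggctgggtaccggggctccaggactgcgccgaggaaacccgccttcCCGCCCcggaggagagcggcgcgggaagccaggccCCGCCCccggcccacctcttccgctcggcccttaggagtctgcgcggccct
Trim37: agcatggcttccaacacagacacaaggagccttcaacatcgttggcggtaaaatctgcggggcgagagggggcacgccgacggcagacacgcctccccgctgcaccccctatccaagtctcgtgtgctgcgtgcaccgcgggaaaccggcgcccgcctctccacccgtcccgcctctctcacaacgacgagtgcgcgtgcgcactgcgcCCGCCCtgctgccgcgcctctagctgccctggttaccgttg
Usp33: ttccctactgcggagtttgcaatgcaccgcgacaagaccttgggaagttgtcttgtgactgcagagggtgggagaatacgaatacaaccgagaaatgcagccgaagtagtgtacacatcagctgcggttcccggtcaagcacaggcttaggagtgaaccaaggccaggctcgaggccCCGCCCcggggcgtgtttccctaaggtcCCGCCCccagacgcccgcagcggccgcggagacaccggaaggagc
Trim5: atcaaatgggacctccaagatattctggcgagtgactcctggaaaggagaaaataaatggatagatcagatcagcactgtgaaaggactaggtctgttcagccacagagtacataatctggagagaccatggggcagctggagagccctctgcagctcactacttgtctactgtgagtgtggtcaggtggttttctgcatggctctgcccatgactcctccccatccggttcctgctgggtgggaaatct

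All 6 printed promoters of genes that fell held a GC box, with the match nearest the start beginning 13 to 51 bases upstream of it. Such a position was not particular to them. The nearest match began 42 bases upstream in Rnf130, which rose, and 31 in Usp8 and 32 in Rnf41, which were not called. Rnf182, Trim27 and Usp33 held 2 matches (those of Rnf182 overlap), Trim24 held 3, and Rnf128 and Trim37 held 1. The GC box stood in 72 of the 120 member promoters (60%), in 57.9% of RNF, 51.7% of TRIM and 70.6% of USP promoters, and in 38.9% of 21851 promoters of protein-coding genes. These promoters were also rich in G and C, with a median of 67.8% against 60.4% for the members and 54% for protein-coding genes, and a median of 20 CpG pairs against 17 and 8. The Trim5 promoter had no GC box, 2 CpG pairs and 50.8% G and C, while that of Rnf130, the other gene that rose, had a GC box and 45 CpG pairs. CCAAT stood in the promoter of 1 of the 6 (Trim24) and in 32.5% of member promoters, CCGGAAG in 1 (Usp33) and in 13.3%, and CACGTG in none of the 6 and in 5% of member promoters. A match describes these letters and does not show a site in use. The member and family shares and medians above include genes that were not tested, which could not have been called as falling.

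Rnf6 had the lowest difference of all 14647 tested probe sets in aged impaired against young. It encodes a RING ligase known in neurons for ubiquitinating LIM kinase 1, a regulator of actin in growing axons, and is measured by 1 probe set, so that its values were not checked against a second probe set. Its value was 7.87 in young animal 7 and 8.82 to 9.17 in the other young animals, with a group mean of 8.84 ± 0.38 (SD, n = 9). The 6 aged unimpaired animals lay at 7.41, 7.48, 7.72, 7.79, 7.93 and 8.01, with a mean of 7.72 ± 0.24 (SD, n = 6). The aged impaired animals split widely. Animals 2, 3 and 7 lay at 7.93, animal 4 at 7.59, animal 6 at 6.57, animal 1 at 4.95, animal 5 at 3.37 and animal 8 at 3.11, with a mean of 6.17 ± 2.07 (SD, n = 8). Exactly the same deposited value, 7.93, stood on 3 arrays, 2 aged impaired and 1 aged unimpaired. No aged animal reached the level of the 8 higher young animals, and the 3 lowest aged impaired animals lay far below every other animal. Animals 5 and 8 lay below the level of 4 used by the filter, where values have no firm order. Whether the low values of aged impaired animals 1, 5 and 8 reflect RNA level or the probes themselves was not tested.

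Rnf6 fell by 2.67 on the log2 scale (SE 0.58, 6.36-fold) in aged impaired against young animals, with a limma adjusted p of 0.00694. An exact two-sided permutation test of the same difference, chosen after the unequal spread had been seen, gave p = 0.000165, and 0.000494 after adjustment over the 3 pairwise comparisons. In aged unimpaired against young the difference was -1.12 (SE 0.63). It did not pass limma's test with the spread pooled over all groups (adjusted p = 0.377). It passed when only these groups entered the fit (adjusted p = 0.0054). Over all limma settings its adjusted p lay between 0.0054 and 0.691. The exact permutation test gave p = 0.000599, and 0.000899 after adjustment over the 3 pairwise comparisons. Adjustment over 3 comparisons does not allow for the choice of Rnf6 for its spread among the tested members. The permutation tests ask whether group labels can be exchanged, so they do not separate a shift of the mean from unequal spread. Between the aged groups the difference of -1.55 (SE 0.64) passed neither test, with an adjusted p of 0.244 by limma and an exact permutation p of 0.114. Leaving out 1 array at a time kept the call against young, with differences between -2.92 and -2.23.

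**Figure D2:**
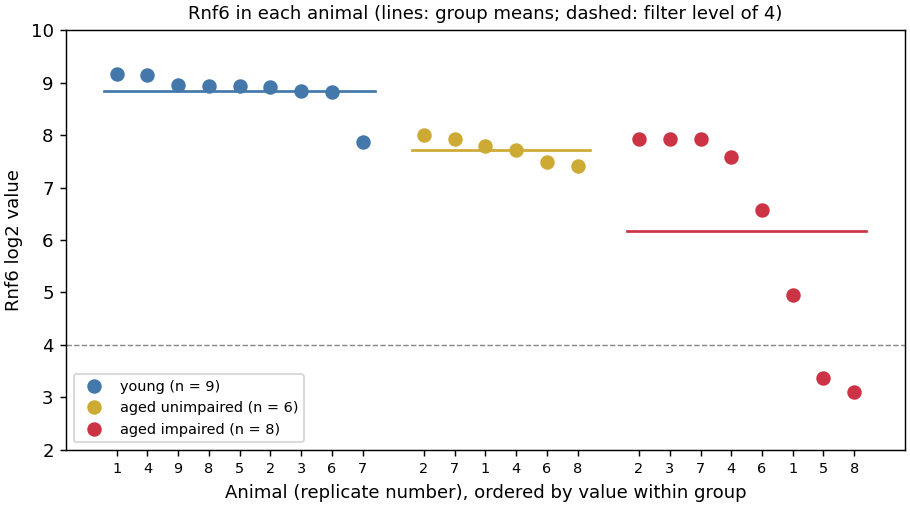
Rnf6 log2 value in each animal, ordered within each group, with group means as lines and the filter level of 4 dashed. Of 9 young animals 8 lie at 8.82 or above, the 6 aged unimpaired animals lie between 7.41 and 8.01, and the 8 aged impaired animals run from 7.93 down to 3.11.

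Pearson's r with Rnf6 over the 23 arrays is given as a description, since all probe sets share the arrays. A negative r marks a pattern opposite to that of Rnf6. Among named non-members, the 5 probe sets with the largest absolute r were taken. They were Dhx36 (r = -0.79), Hspa9 (r = -0.79), Kiaa1755 (r = -0.74), Mfsd3 (r = 0.74) and Rab3ip (r = 0.73). Hspa9, the mitochondrial chaperone mortalin, rose by 1.29 (SE 0.27, limma adjusted p = 0.00601) from a young mean of 3.95, below the filter level, to an aged impaired mean of 5.24. The other 4 moved by no more than 0.24 in size.

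Among the membrane and endosomal RNF members, which carry a transmembrane segment or act on endocytosed receptors, 13 of 19 listed genes were tested by their brightest probe set. Rnf130 rose and Rnf128 fell in aged impaired against young, and the list's median difference was -0.07, beside -0.02 for all 8726 genes, of which 3.8% rose and 6.42% fell; these shares are the background of each count of listed genes below. Rnf128 (GRAIL) is a transmembrane ligase first known from unresponsive T cells. Its probe set 1375934_at ran from 8.49 through a median of 8.67 to 8.79 in young, from 8.33 through 8.37 to 8.52 in aged unimpaired and from 8.09 through 8.38 to 8.50 in aged impaired animals. Both aged groups sat below the young with little overlap, as 5 of 6 aged unimpaired and 7 of 8 aged impaired animals lay below every young animal. The fall was 0.29 (SE 0.05, 1.23-fold) in aged impaired animals, with a limma adjusted p of 0.00111.

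Aged unimpaired animals showed a fall of Rnf128 as well, -0.25 at the same probe set (SE 0.05, adjusted p = 0.0158). Its second probe set, 1383554_at, ran from 6.72 to 7.41 (median 7.14) in young, 6.81 to 7.33 (median 6.92) in aged unimpaired and 6.29 to 6.96 (median 6.68) in aged impaired animals, so that 4 of 8 aged impaired animals lay below every young one. There the fall was 0.45 (SE 0.11, adjusted p = 0.0105) in aged impaired animals, and the difference was -0.16 (SE 0.12, adjusted p = 0.524) in aged unimpaired ones. The probe sets correlated over the arrays with r of 0.73.

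Rnf130, the mammalian Goliath and a relative of Rnf128 with the same protease-associated and RING layout, went the other way. Young animals ran from 7.75 through a median of 7.93 to 7.97, aged unimpaired from 7.77 through 7.97 to 8.18 and aged impaired from 7.79 through 8.24 to 8.42. All aged impaired animals but 1 lay above every young one, and the unimpaired overlapped both other groups. The rise was 0.31 (SE 0.07, 1.24-fold, adjusted p = 0.0139) in aged impaired animals, against 0.10 (SE 0.08, adjusted p = 0.58) in aged unimpaired ones, and a difference between the aged groups of 0.21 (SE 0.08) had an adjusted p of 0.226.

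Rnf182, a transmembrane ligase found mainly in brain, ran at probe set 1398412_at from 9.35 through a median of 9.62 to 9.94 in young, 9.31 through 9.36 to 9.52 in aged unimpaired and 8.98 through 9.29 to 9.60 in aged impaired animals. The groups overlapped, with 5 of 8 aged impaired animals below every young one. It fell by 0.29 (SE 0.08, adjusted p = 0.0235), and the call was lost without aged impaired animal 2 (adjusted p between 0.0118 and 0.0757 over all settings). The other Rnf182 probe set, which is brighter, differed by -0.30 (SE 0.11, adjusted p = 0.0729), and the pair correlated with r of 0.84. Rnf180, a membrane ligase that targets monoamine oxidase A, differed by -0.23 (SE 0.08, adjusted p = 0.0579).

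Rnf215, a transmembrane RING protein with little known of its role, fell by 0.28 (SE 0.06, adjusted p = 0.00862) at probe set 1395367_at. Young animals ran from 5.57 through 5.72 to 6.09, aged unimpaired from 5.57 through 5.57 to 5.64 and aged impaired from 5.31 through 5.42 to 5.57. Exactly the same deposited value, 5.57, stood on 12 of the 23 arrays (4 young, 5 aged unimpaired and 3 aged impaired), the highest of the aged impaired and the lowest of the young. A second probe set differed by -0.19 (SE 0.07, adjusted p = 0.0743).

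The neuronal TRIM list holds genes known from axons, synapses or neuron disease, and also Trim37, known from peroxisomes and centrosomes. All 7 of its 11 genes that were on the array were tested. In aged impaired against young 3 fell (Trim3, Trim37 and Trim46) and none rose. The median difference was -0.11 in aged impaired and -0.07 in aged unimpaired animals. Trim3, a postsynaptic ligase of the scaffold protein GKAP, ran from 8.86 through 8.91 to 9.03 in young, 8.81 through 8.85 to 8.92 in aged unimpaired and 8.72 through 8.83 to 8.86 in aged impaired animals. The change was small but even, with 6 of 8 aged impaired animals below every young one. Trim3 fell by 0.11 (SE 0.03, 1.08-fold, adjusted p = 0.0197), and the call was lost when arrays were centred on their medians or quantile normalized (adjusted p between 0.0157 and 0.0767 over all settings).

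Trim37, a ligase of peroxisomes and centrosomes that is mutated in a human growth disorder, ran at its bright probe set from 10.32 through 10.48 to 10.59 in young, 10.20 through 10.41 to 10.53 in aged unimpaired and 10.14 through 10.28 to 10.50 in aged impaired animals. Aged impaired animals were mostly the lowest, 5 of 8 below every young one. The fall was 0.19 (SE 0.05, 1.14-fold, adjusted p = 0.0194), and the dim probe set of the gene differed by -0.01 (SE 0.04). Trim46, which organises microtubule bundles at the axon initial segment, ran from 8.47 through 8.64 to 8.70 in young, 8.31 through 8.58 to 8.61 in aged unimpaired and 8.10 through 8.54 to 8.59 in aged impaired animals. The 3 lowest aged impaired animals set its mean, and the other 5 aged impaired animals lay inside the young range. Its fall of 0.21 (SE 0.07, adjusted p = 0.0496) stood just inside the threshold and was lost in 16 of 23 fits that left out 1 array, from all 3 groups (adjusted p between 0.035 and 0.139 over all settings).

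The other neuronal TRIM members stayed outside the threshold. Trim32 differed by -0.11 (SE 0.04, adjusted p = 0.1), and Trim2, a ligase of neurofilament light chain and among the brightest TRIM genes, differed by 0.02, 0.10 and 0.00 at its 3 probe sets, each with an SE of 0.05 to 0.09. The markers of CA3 neurons that fell beside these genes were Chgb, Dkk3, Grik5 and Nrip3, with a median difference of -0.17 over the 12 tested CA3 markers, and their part in the falls of the neuronal TRIM members was not tested.

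Chromatin and DNA repair members numbered 15 tested of 23 listed genes, of which Trim24 fell and none rose, with a median difference of -0.08. Trim24 (TIF1 alpha), a chromatin reader and nuclear receptor cofactor, ran from 7.51 through 7.69 to 7.82 in young, 7.46 through 7.70 to 7.99 in aged unimpaired and 7.23 through 7.44 to 7.65 in aged impaired animals. Aged unimpaired animals spanned the young range, and 4 of 8 aged impaired animals lay below every animal of both other groups. The fall against young was 0.27 (SE 0.07, 1.21-fold, adjusted p = 0.0205, and between 0.0125 and 0.0714 over all settings), the difference of unimpaired from young was -0.02 (SE 0.08), and that between the aged groups was -0.25 (SE 0.08, adjusted p = 0.119). Its relative Trim33 (TIF1 gamma), which acts on SMAD4, differed by -0.15 from young (SE 0.05, adjusted p = 0.0805). Of the repair enzymes, Usp1, which acts on PCNA and FANCD2, differed by 0.18 (SE 0.08, adjusted p = 0.133), Usp21, which acts on histone H2A, by -0.17 (SE 0.06, adjusted p = 0.059) and Rnf138 by -0.17 at both of its probe sets (adjusted p = 0.0578 at the brighter, SE 0.06, and 0.29 at the dimmer, SE 0.10).

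Trim27, which with a MAGE partner ubiquitinates the endosomal WASH complex, ran from 8.35 through 8.41 to 8.54 in young, 8.15 through 8.33 to 8.41 in aged unimpaired and 7.99 through 8.27 to 8.35 in aged impaired animals. All aged impaired animals but 1 lay below every young one. Its fall of 0.21 (SE 0.05, 1.15-fold, adjusted p = 0.00927) kept its call in all 12 other settings and all 23 fits that left out 1 array.

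Of the 17 listed interferon and innate immune members, 12 were on the array and 6 were tested. Trim5, known in primates for restricting retroviral capsids, was the only one called and rose by 0.15 (SE 0.04, 1.11-fold, adjusted p = 0.0311). Young animals ran from 4.49 through 4.73 to 4.73, aged unimpaired from 4.64 through 4.73 to 4.73 and aged impaired from 4.73 through 4.82 to 5. Exactly 1 deposited value, 4.73, stood on 13 of 23 arrays (5 young, 4 aged unimpaired and 4 aged impaired). The other 4 aged impaired animals lay above it, and the remaining young animals, at 4.49 to 4.70, lay below it. Without aged impaired animal 4, 5, 7 or 8, or young animal 2 or 3, the call was lost, with an adjusted p between 0.0123 and 0.0795 over all settings.

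Rnf213, a giant ring-shaped ATPase and ligase linked to moyamoya disease, differed by 0.25 (SE 0.17, adjusted p = 0.347), Rnf31 by 0.21 (SE 0.09, adjusted p = 0.138) and Trim8 by -0.10 (SE 0.06, adjusted p = 0.326). The 6 tested members had a median difference of 0.10. Trim25, which ubiquitinates the viral RNA sensor RIG-I, had group means of 3.71, 3.67 and 3.78 in young, aged unimpaired and aged impaired animals, Trim34 of 3.2, 3.38 and 3.43, and the ISG15 protease Usp18 of 2.7, 2.81 and 2.77, all under the filter level. Of the interferon response genes outside the families, 6 of 21 were tested and 3 rose in aged impaired against young. These were Ifitm3 (0.81, SE 0.14, adjusted p = 0.00124), Irf9 (0.56, SE 0.15, adjusted p = 0.0197) and B2m (0.39, SE 0.06, adjusted p = 0.000789). The 9 microglia markers that rose stood beside these rises, and their part in them was not tested.

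RBR members, which pass ubiquitin through a cysteine of their own, had 6 of 8 listed genes tested, and 0 were called by limma in any pairwise comparison, with 1 at an unadjusted p under 0.05 in each. Rnf14, the brightest RNF member, lay at 12.90 ± 0.03 in young (SD, n = 9) and 12.85 ± 0.06 in aged impaired animals (SD, n = 8) and differed by -0.06 (SE 0.03, adjusted p = 0.203). Rnf31, the catalytic subunit of the complex that makes linear chains, was called only when the aged groups were averaged. The rise over young was 0.27 (SE 0.08, adjusted p = 0.0466), and the call was lost in 18 of 23 fits that left out 1 array. The same deposited Rnf31 value, 6.39, stood on 9 of the 23 arrays (4 young, 2 aged unimpaired and 3 aged impaired). Rnf19a differed by -0.06 at its brighter probe set (SE 0.05, adjusted p = 0.494) and -0.13 at its dimmer one (SE 0.09, adjusted p = 0.345), and Rnf144b by -0.13 (SE 0.07, adjusted p = 0.261).

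Of the USP members listed for chain recycling and trafficking, 19 of 20 were tested, Usp33 fell, none rose, and the median difference was -0.04. Usp33, which protects endocytosed receptors and the guidance receptor Robo1 from degradation, ran from 11.40 through 11.44 to 11.50 in young, 11.32 through 11.42 to 11.46 in aged unimpaired and 11.29 through 11.34 to 11.42 in aged impaired animals. The shift was narrow, with 5 of 8 aged impaired animals below every young one. Its fall of 0.10 (SE 0.03, 1.07-fold, adjusted p = 0.037) was lost in 9 of 23 fits that left out 1 array, the young animals 1, 3, 4, 5 and 7 and the aged impaired animals 2, 4, 5 and 7.

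The other bright USP members were not called in aged impaired against young, though the 95% interval of Usp14 excluded 0. Usp14, the protease bound to the proteasome, lay at 11.69 ± 0.07 in young (SD, n = 9) and 11.59 ± 0.07 in aged impaired animals (SD, n = 8), a difference of -0.10 with a 95% interval of -0.18 to -0.02 and an adjusted p of 0.103. Usp9x differed by -0.04 (95% interval -0.11 to 0.04), Usp32 by -0.04 (-0.13 to 0.05) and the bright Usp11 probe set by -0.07 (-0.16 to 0.03). Usp20 differed by -0.14 (SE 0.05, adjusted p = 0.056) and Usp13 by 0.19 (SE 0.15, adjusted p = 0.443). The 55 USP differences had quartiles of -0.06 and 0.03 and ran from -0.17 to 0.19, while those of RNF had quartiles of -0.13 and 0.02 and those of TRIM -0.11 and 0.07. The median spread within groups was of like size in the 3 families, with a pooled SD of 0.122 for RNF, 0.11 for TRIM and 0.119 for USP, beside 0.137 for all tested probe sets.

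**Figure D3:**
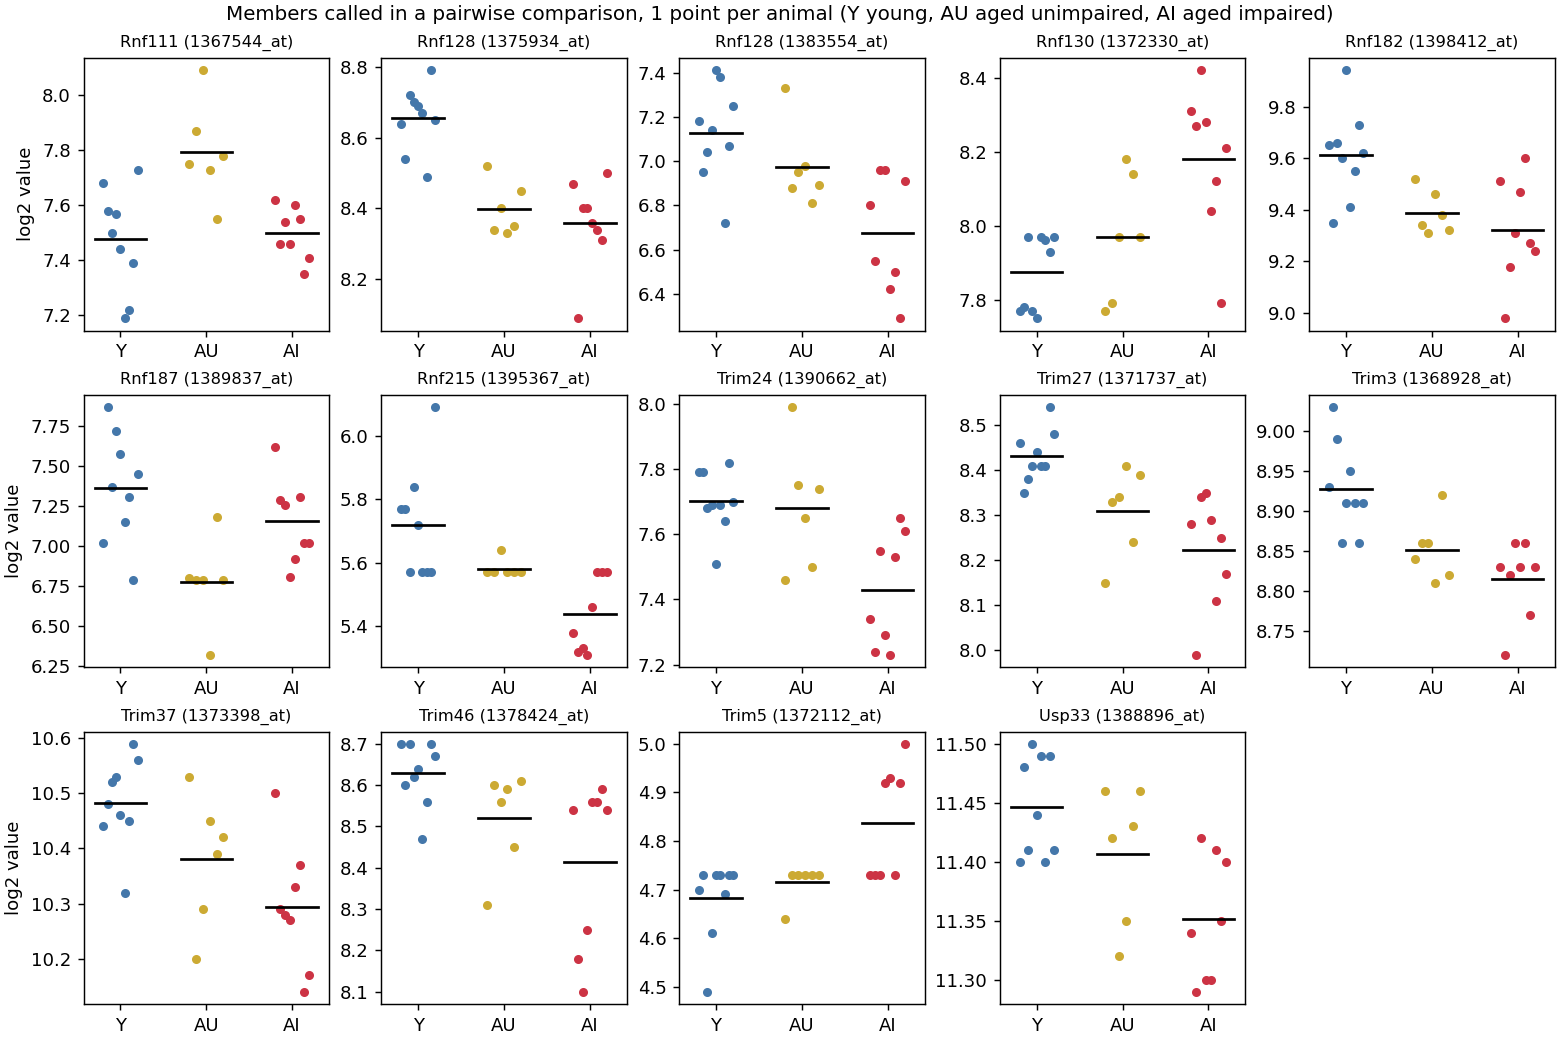
Log2 value in each animal (1 point) for the 14 member probe sets other than Rnf6 that were called in a pairwise comparison, with group means as lines; Y is young (n = 9), AU aged unimpaired (n = 6) and AI aged impaired (n = 8), and each panel has its own axis. Most panels overlap between groups, Trim5 and Rnf215 show the repeated values of 4.73 and 5.57, and Rnf111 and Rnf187 are called for the aged unimpaired animals.

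In aged unimpaired against young animals 3 of 151 member probe sets were called (1.99%), against 2.06% of all tested probe sets, of which 1.37% rose and 0.696% fell. All 3 were RNF members, and in TRIM and USP 0 were called by limma, with 2 of 23 and 8 of 55 at an unadjusted p under 0.05. The first was Rnf128, given above. Rnf111 (Arkadia), a SUMO-guided ligase of TGF-beta signalling, ran at probe set 1367544_at from 7.19 through 7.50 to 7.73 in young, 7.55 through 7.76 to 8.09 in aged unimpaired and 7.35 through 7.50 to 7.62 in aged impaired animals. Unimpaired animals were the high group, 4 of 6 above every young one. It rose by 0.32 (SE 0.08, adjusted p = 0.0441) in them and differed by 0.02 (SE 0.08) in aged impaired animals, and its second probe set by 0.08 (SE 0.07) in aged unimpaired ones.

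Rnf187, a coactivator of the transcription factor Jun, ran at its dimmer probe set from 6.79 through 7.37 to 7.87 in young, 6.32 through 6.79 to 7.18 in aged unimpaired and 6.81 through 7.14 to 7.62 in aged impaired animals. The ranges overlapped, with 1 of 6 aged unimpaired animals below every young one. It fell by 0.58 (SE 0.15, 1.5-fold, adjusted p = 0.0435) in aged unimpaired animals, while its bright probe set differed by -0.04 (SE 0.04). At the dimmer probe set, exactly the same deposited value, 6.79, stood on 3 aged unimpaired arrays and 1 young array. The Rnf111 and Rnf187 calls were each lost in over 10 of the 23 fits that left out 1 array, 16 for Rnf111 and 13 for Rnf187, arrays of all 3 groups among them.

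Between aged impaired and aged unimpaired animals, which share an age range and differ in learning index, 0 of 151 member probe sets were called by limma, against 0.778% of all tested probe sets (0.676% higher and 0.102% lower in impaired animals), and 24 members (15.9%) had an unadjusted p under 0.05, beside 15.2% of all. The median difference was -0.06 for RNF, -0.03 for TRIM and -0.02 for USP. The smallest p-values belonged to Usp46, Rnf111, Trim33, Usp7 and Trim24. Usp46, which removes ubiquitin from the AMPA receptor subunit GluA1, ran at probe set 1375194_at from 7.58 through 8.04 to 8.51 in young, 7.97 through 8.35 to 8.68 in aged unimpaired and 7.46 through 7.97 to 8.09 in aged impaired animals. Aged impaired and unimpaired animals overlapped, 4 of 8 impaired lying below every unimpaired one, and the young overlapped both. The difference was -0.43 (SE 0.12, adjusted p = 0.0822), and at the other 2 probe sets of the gene it was 0.00 and 0.02.

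Usp7, which stabilises Mdm2 and p53, ran at probe set 1394393_at from 7.06 through 7.37 to 7.61 in aged unimpaired and 7.56 through 7.70 to 7.79 in aged impaired animals, with 6 of 8 impaired above every unimpaired one. Young animals (7.25 to 7.94) overlapped both groups. The difference was 0.33 (SE 0.10, adjusted p = 0.114) here, 0.21 at another probe set and -0.12 at the remaining one. The differences were -0.29 for Rnf111 (SE 0.08, adjusted p = 0.085), -0.19 for Trim33 (SE 0.06, adjusted p = 0.109) and -0.25 for Trim24 (SE 0.08, adjusted p = 0.119). Without aged unimpaired animal 7, 3 members were called, Usp46, Rnf111 and Usp7, beside 3.05% of all tested probe sets, and without aged impaired animal 1, 1 member was called, beside 0.225% of all.

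Averaging the aged groups and comparing them with young gave 8 called members (5.3%), against 6.9% of all tested probe sets. Rnf6 (-1.90), Rnf128 (-0.27), Rnf182 (-0.26), Rnf215 (-0.21), Trim27 (-0.16), Trim37 (-0.15) and Trim3 (-0.09) fell and Rnf31 (0.27) rose, and no USP member was called. The 1 rise stood beside 3.34% of all tested probe sets that rose and the 7 falls beside 3.56% that fell. This comparison shares its animals with the 2 others against young, so its calls add no independent evidence. The Trim37 call (adjusted p = 0.0447) held in 6 of 23 fits that left out 1 array. The calls of Rnf6, Rnf182, Rnf215, Trim37 and Rnf31 were lost without the filter on dim values.

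Several members were measured by more than 1 probe set. Among the tested members 35 genes had 2 or 3 probe sets, 76 in all, with a median correlation between them of 0.28 over the arrays. In 11 of the 35 genes the probe sets differed from young on both sides of 0 in aged impaired animals. Of these genes 4 had a called probe set, and Rnf128 alone had all of its probe sets called, while Rnf182, Rnf215 and Trim37 had 1 of 2.

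**Figure D4:**
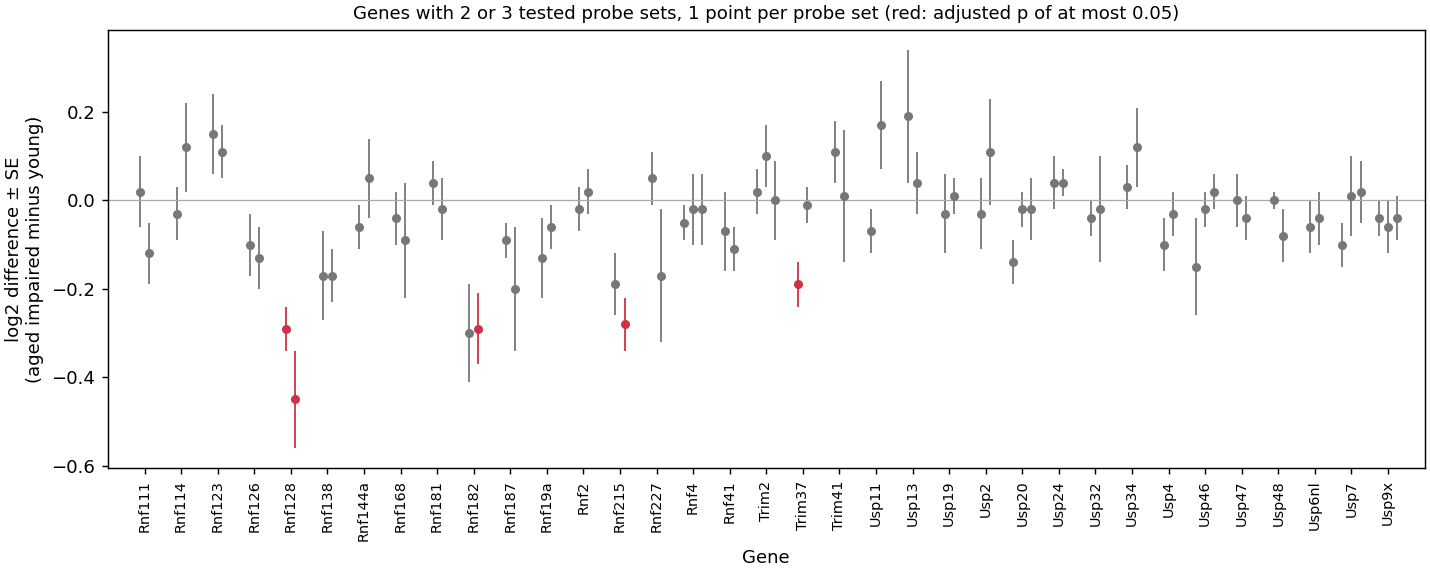
Difference between aged impaired and young group means on the log2 scale, with the SE of the fit as bars, for every tested probe set of the 35 members with 2 or 3 of them; red marks an adjusted p of at most 0.05. Both Rnf128 probe sets are red and below 0, and Rnf182, Rnf215 and Trim37 each have 1 red probe set.

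The remaining 83 member probe sets stayed under the filter, 78 of them below 4 on every array, so that 36 genes had no tested probe set. From RNF these included Rnf40 and Rnf169, known from histone ubiquitination and DNA breaks, from TRIM the muscle ligases Trim54, Trim63 and Trim72, and from USP Usp15, Usp3, Usp29, Usp43, Usp44 and Usp49. Their levels were not distinguishable from background here, which does not show that they are absent from CA3.

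The steps around the families were taken from lists of genes that are no members, each by its brightest probe set. Of 29 tested ubiquitin, E1 and E2 genes, 3 fell and none rose in aged impaired against young, with a median difference of -0.06, beside the 3.8% of all genes that rose and 6.42% that fell. They were Uba6, an alternative E1 enzyme (-0.34, SE 0.08, adjusted p = 0.00846), Cdc34 (-0.17, SE 0.05, adjusted p = 0.0371) and Ube2v2, an E2 variant that partners Ubc13 (-0.15, SE 0.03, adjusted p = 0.00274). Of 71 other E3 ligases 3 rose, Peli2 (0.76), Mdm4 (0.45) and Xiap (0.45), and 3 fell, Btrc (-0.38), Fbxo45 (-0.25) and Fbxw11 (-0.14), shares near or under those of all genes. Btrc and Fbxw11 are the paired beta-TrCP subunits of SCF ligases, and Fbxo45 belongs to a synaptic ligase. Of 22 other deubiquitinases Otud7b rose (0.37, SE 0.10, adjusted p = 0.0289) and none fell, and of 22 ubiquitin receptors and segregase genes 0 were called by limma, with 6 at an unadjusted p under 0.05. Between the aged groups Xiap (0.76, SE 0.14, adjusted p = 0.0217) and Herc1 (1.75, SE 0.35, adjusted p = 0.0261) were higher in impaired animals. Neither call held with only these groups in the fit, with the control gap as a covariate or with the replicate numbers as a block, where 0 of all tested probe sets were called.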

How the data were processed

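RNA of CA3 tissue from 23 male Long-Evans rats was hybridised to Affymetrix Rat Genome 230 2.0 arrays, 1 per animal, per the labels' protocols. The authors deposited log2 values from GCRMA, per the submitters' processing notes, whose version is not given in the labels read here. GCRMA takes off a background set by probe sequence, brings the arrays to 1 distribution and reduces each probe set to 1 value, which compresses dim values and can give several arrays exactly the same value. Arrays give no read depth, and their number limits the precision.

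Of 31099 probe sets 57 controls were left out. In the platform annotation 20826 of the rest named 1 gene, 436 several and 9780 none; members came from the first kind only. Some control rows carry names that do not match their values, so 2 of them served only as a gap between arrays. The 14647 probe sets at 4 or more (log2) in 6 or more animals entered limma 3.58.1 in R 4.3.3 (statmod 1.5.0 for array weights and priors): 1 mean per group, all 23 arrays, 20 residual and 2.35 prior degrees of freedom, moderated two-sided tests and Benjamini-Hochberg adjustment over all tested probe sets. The fit was tested on simulated data.

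Named members were those called in a pairwise comparison, the 5 brightest of each family and the 5 with the smallest p between the aged groups. The 3 with the widest spread and up to 4 of each list of members by role were added. Outside the families, the 5 probe sets with the largest absolute r with Rnf6 and up to 4 genes of each list were named. Fits with other filters, scalings, weights, covariates and samples were alternatives. The members, lists and rules were chosen with earlier results of these data known. Aged unimpaired animals other than these 6, other hippocampal fields and scanner images were not used here.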

Additional observations from a re-analysis of the deposited data

Results flagged for a closer look

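Single animals stood apart from the rest of their group in 9 of 135 groups, by Dixon's test of the gap to the nearest animal. The groups came from 45 named probe sets. A chance rate of about 5% of groups does not apply to this count, which cannot be set against chance. Rnf6, Rnf213 and Trim41 were named partly for their wide spread, which such animals widen. Some groups also held repeated values, among them those of Trim5 and Rnf31. Young animal 7 had an Rnf6 value of 7.87, against 8.82 for the next young animal. Young animal 2 had a Trim5 value of 4.49, against 4.61. Rnf128 was low in aged impaired animal 2 at probe set 1375934_at (8.09, against 8.31) and high in aged unimpaired animal 1 at 1383554_at (7.33, against 6.98). Usp46 was low in aged impaired animal 8 at probe set 1375194_at (7.46, against 7.87). Trim41 was low at its dimmer probe set in young animal 6 (5.72, against 6.10) and in aged impaired animal 7 (5.21, against 6.17). Rnf31 was low in aged impaired animal 7 (6.13, against 6.39), and Rnf138 was high in aged unimpaired animal 1 (6.41, against 5.63). The dimmer Trim41 probe set differed by 0.01 between aged impaired and young animals (SE 0.15). Its wide spread came from young animal 6 and aged impaired animal 7 among others.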

How the results depend on the processing

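No difference called in the text changed direction under any setting tried. In aged impaired against young the count of 13 called members lay between 9 (of 234 without the filter, beside 2.47% of all probe sets, and of 151 with the replicate block, beside 5.94%) and 18 (of 149 with aged impaired arrays 1 and 2 left out together, beside 10.7%), and was 10 when arrays were centred on their medians (10.5% of all) and 12 after quantile normalization (11.6% of all). The TRIM count of 6 became 3 without the filter, with quantile normalization and with the replicate block. The USP count of 1 became 0 with centring, quantile normalization, array weights, the control gap as a covariate and the replicate block. The RNF count of 6 became 3 with 1 probe set per gene and 13 without aged impaired arrays 1 and 2. In aged unimpaired against young the count of 3 became 1 without the filter, with the control gap and with 1 probe set per gene, 5 with array weights and 0 with the replicate block. For the mean of both aged groups the count of 8 became 3 without the filter, 13 with quantile normalization, 16 with array weights and 2 with the replicate block. The cause of these changes was not tested.

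Leaving out 1 array gave 10 to 23 members in aged impaired against young (RNF 5 to 15, TRIM 4 to 6, USP 0 to 2), 1 to 3 in aged unimpaired against young, 0 to 3 between the aged groups and 3 to 14 for both aged groups. The extremes were aged impaired array 1 for 23 and 14, aged unimpaired array 7 for 3, and young array 3 for the lowest 3. The other arrays that moved the count of both aged groups by over 1.5 times were young array 4 (5) and aged unimpaired array 8 (5). The USP count was 0 without young array 3, 4 or 7 or aged impaired array 2, 4 or 5, and 2 without young array 8 or aged impaired array 1 or 3. The aged unimpaired count was 1 without any of young arrays 2, 3, 4 and 6, aged unimpaired arrays 1, 2, 4, 6 and 8 and aged impaired arrays 3 and 8.

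Replicate numbers of the labels do not pair the animals: over 20 same-numbered pairs the correlation of deviations ran from -0.14 to 0.13, and 2 exceeded 0.1. With the replicate block 7 of the 13 calls remained, and of those named in the text Rnf130, Rnf182, Trim24, Trim3, Trim46 and Usp33 were lost. The fall of Rnf6 (-3.03 to -2.23), Rnf128, Rnf215, Trim27 and Trim37 against young kept its call under all settings run. Dim signal limits Trim5 and the 83 probe sets not tested.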
